A study of Mus musculus with 6 samples.

Results

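The genes described here are 45 genes of nucleolar ribosome biogenesis, taken as the rows of the deposited all-genes table whose gene name is on a set list. The list comprises nucleolar scaffold proteins, the proteins of the guide RNA particles that modify ribosomal RNA, subunits of RNA polymerase I, and assembly factors of the small and the large ribosomal subunit. Of the 45 genes, 44 had a row among the 23951 rows of the table, and all 44 passed the filter on low values that left 10723 genes for testing. Noc2l was not analysed here.

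RNA was sequenced from CD8+ T cells of mice that lack Tcf1 (the product of Tcf7) and Lef1, related HMG-box transcription factors of the T cell lineage, per the labels, and of wild-type (WT) mice. Mice of both groups carried hCD2-Cre and the Rosa26-lsl-GFP reporter. The mice labelled Tcf1-/-Lef1-/-, called double knockout (DKO) here, also carried floxed alleles of both genes, and the WT mice did not. In both groups, naive splenic CD8+ T cells were sorted by the phenotype GFP+ TCRbeta+ CD62Lhi CD44lo-med. They were then kept for 72 h in IL-7 plus IL-15, cytokines that sustain T cells and let them divide slowly. The series holds 3 DKO and 3 WT libraries, all at 72 h. The labels give no ages, and the deletion was driven by a human CD2 promoter, which is active in lymphocytes and not in CD8+ T cells alone. No label ties the libraries to individual mice or cultures, so p-values measure only the spread between these samples, which may be technical.

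Ribosomes are built in the nucleolus. RNA polymerase I transcribes a long precursor RNA there, small nucleolar ribonucleoproteins (snoRNPs) methylate or pseudouridylate it at sites chosen by a guide RNA, and many assembly factors cut, fold and package it into the pre-40S and pre-60S particles. T cells that leave quiescence raise this output before they divide, and the transcription factor Myc is known as an activator of many of the genes involved.

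Values were deposited as FPKM, fragments scaled to the length of the transcript and to library size. Absolute depth is therefore unknown, and levels can be compared between genes. Relative depth was taken as the most frequent ratio of low values between WT library 0, set to 1.0, and each other library. It was 1.09 to 1.19 for DKO libraries and 1.06 and 1.22 for WT libraries 1 and 2. The most frequent ratio held only 14.9% to 18.5% of the genes compared. In each library, 10473 to 10551 genes reached 1 FPKM. Libraries carry the column numbers 0 to 2. Tcf7 had 288, 270 and 277 FPKM in the DKO libraries, against 564, 555 and 532 FPKM in WT (limma adjusted p = 0.0041). Lef1 had 48.5, 51.8 and 52.2 FPKM in DKO, against 132, 105 and 157 FPKM in WT (limma adjusted p = 0.0066). These are values per gene, the source of the remaining FPKM was not examined, and they do not show whether protein was absent. T cell markers were at 4119 to 4766 FPKM in sum in DKO and 4293 to 5218 FPKM in WT, and 0 of 10 were called by limma (the authors' deposited table calls 1 lower, Cd3d). Of 8 B cell markers, 7 were below the filter, with Ms4a1 and Pax5 at 0 in every library (18.2 to 27.5 FPKM in sum in DKO, 13.5 to 22.1 FPKM in WT). Nearly all of this sum was Cd79b, with 26.5, 22.2 and 17.8 FPKM in DKO, against 13.1, 20.9 and 15.3 FPKM in WT (limma adjusted p = 0.27). All 8 erythroid and platelet markers were below the filter (0.229 to 2.13 FPKM in sum in DKO, 0.241 to 1.61 FPKM in WT), and 4 of them were at 0 in every library. Myeloid markers summed to 3.38 to 10.04 FPKM in DKO and 3.50 to 16.0 FPKM in WT. In libraries 0, 1 and 2, Mpo had 3.14, 2.99 and 0 FPKM in DKO, against 0.022, 3.63 and 2.74 FPKM in WT. Spi1 had 1.81, 2.07 and 0 FPKM in DKO, against 0, 2.68 and 1.99 FPKM in WT. Both were thus lowest in DKO library 2 and WT library 0, as was Hbb-bt of the erythroid list, while Cd68 was not. Of 10 NK and innate lymphocyte markers, 7 were below the filter and 1, Eomes, was called, at 9.35 ± 4.51 FPKM in DKO and 65.9 ± 24.0 FPKM in WT (SD, n = 3 each; limma adjusted p = 0.018). That call was lost without DKO library 1 or 2 or WT library 0 or 1 (limma adjusted p from 0.055 to 0.064). The list summed to 20.7 to 26.7 FPKM in DKO and 50.9 to 106 FPKM in WT, and without Eomes to 14.003 to 16.6 FPKM in DKO and 8.75 to 15.7 FPKM in WT. Tyrobp lay the other way, at 7.11 ± 3.32 FPKM in DKO and 2.97 ± 1.53 FPKM in WT (limma adjusted p = 0.17), and Klri2, Zbtb16 and Fcgr3, below the filter, had each DKO library above each WT library. The authors' deposited table calls 2 of 4 tested NK markers higher (Klri2 and Tyrobp) and 2 lower. Of 4 CD4 T cell markers, Foxp3 was called higher, at 104 ± 10.2 FPKM in DKO and 3.69 ± 2.02 FPKM in WT (limma adjusted p = 0.0029). The others, Cd4, Cd40lg and Zbtb7b, were below the filter and summed to 0.896 to 3.44 FPKM in DKO and 0.163 to 0.683 FPKM in WT.

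DKO library 2 and WT library 0 stood apart from the rest of their groups along transcript length, beside the low markers Mpo, Spi1 and Hbb-bt. Transcript length is here that of the longest annotated coding transcript of a gene, which may not be the one expressed. Across the 44 members, the difference between DKO library 1 and DKO library 2 had a Pearson correlation of -0.66 with the log2 of transcript length (Spearman -0.63), and the difference between WT library 1 and WT library 0 one of -0.63 (Spearman -0.63). These are descriptions across genes that share their libraries, and the same held over 9493 genes (-0.50 in DKO and -0.58 in WT). The 6 members with transcripts under 1500 bases, Fbl, Nhp2, Nop10, Gar1, Mrto4 and Polr1c, were higher in DKO library 1 than in DKO library 2 by a median of 0.43 on the log2 scale, and in WT library 1 than in WT library 0 by 0.64. In the 38 longer members the medians were 0.079 in DKO and 0.086 in WT. The genotype difference had a correlation of 0.27 with length (Spearman 0.36), with a median of -0.25 in the 6 short and -0.11 in the 38 longer members. Over all genes the correlation was 0.16, with a median of -0.16 in 1351 short and 0.027 in longer genes. Small RNA rows took 19.6% of FPKM in DKO library 2, against 13.5% and 14.3% in the other DKO libraries, and 15.8% in WT library 0, against 12.7% and 12.8% in the other WT libraries. The part of these differences in the results was not tested. The limma results are given with these libraries, and for the members and the other ribosome assembly genes also without both. The fit without both called 10 of all genes tested, against 1144 with all libraries. Most limma calls were thus lost in it, and those of markers, division genes and the Myc network are not given from it. Values of the authors' deposited table are given as deposited and could not be given without these libraries.

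**Figure D1:**
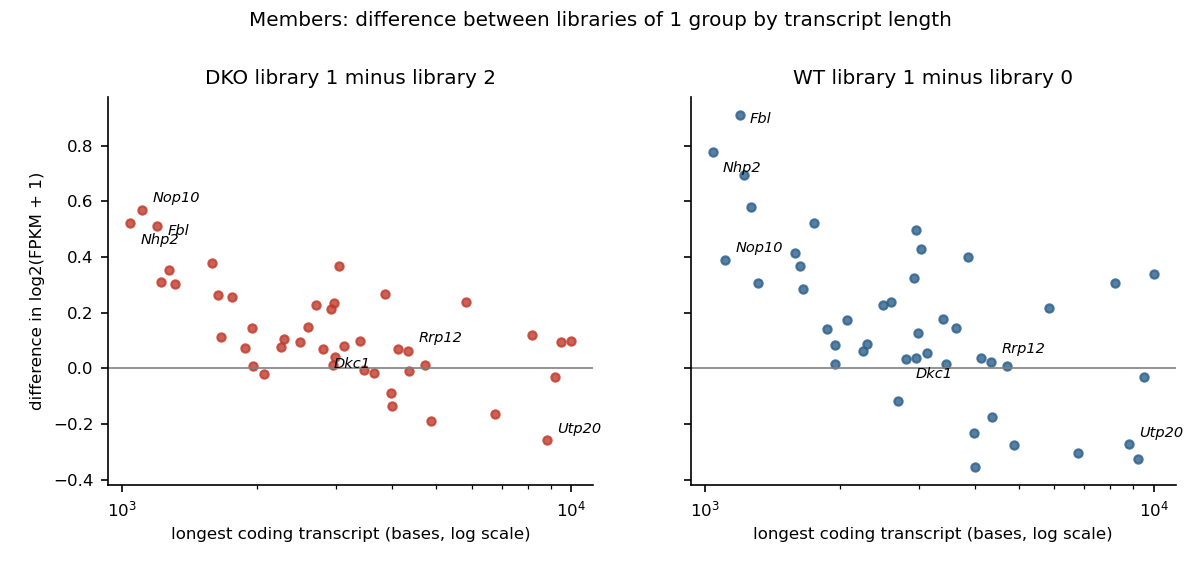
Each point is 1 of the 44 members, placed by the length of its longest coding transcript (log scale) and by the difference in log2(FPKM + 1) between libraries of 1 group, DKO library 1 minus 2 on the left and WT library 1 minus 0 on the right. Fbl, Nhp2 and Nop10, with short transcripts, lie high in both panels, while Rrp12 and Dkc1 lie close to 0.

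At 72 h the question was how far the loss of Tcf1 and Lef1 went along with a change in this programme. The nucleolar genes were on the whole slightly lower in DKO than in WT cells, and few passed the test. Rrp12, a factor of pre-40S maturation and export known from yeast, and Dkc1, the pseudouridine synthase dyskerin, were called lower in DKO cells. No member was called higher. Thus 2 of 44 members (4.55%) were called lower at a limma adjusted p under 0.05, where 6.36% of all genes tested were called lower and 4.31% higher, so the share of calls was no larger than in the background. The fitted log2 fold change of DKO over WT was below 0 for 40 of the 44 members (90.9%, against 48.7% of all genes tested). An unadjusted limma p under 0.05 was found for 9 of the 44 members. This was a smaller share than that over all genes tested, 2808 of 10723. The median was -0.12, against 0.0082 over all genes tested, and values ran from -0.61 to 0.13. All DKO libraries lay below all WT libraries for 13 members (29.5%, where 17.1% of all genes tested did), and for 0 members did they all lie above (17% of all genes). In such bulk samples, fewer cells of a type and less RNA per cell cannot be told apart.

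The count below 0 depended on the scaling. When libraries were scaled to the total without small RNA and ribosomal protein rows, 27 of 44 members stayed below 0 and their median was -0.037. Under that scaling the median of all genes was 0.089, so the distance of the members from it was -0.13, as it was with the deposited scaling (-0.13). Without DKO library 2 and WT library 0, 38 of 44 members were below 0 with a median of -0.14 and 0 were called, in a fit that called 10 of all genes tested.

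**Figure D2:**
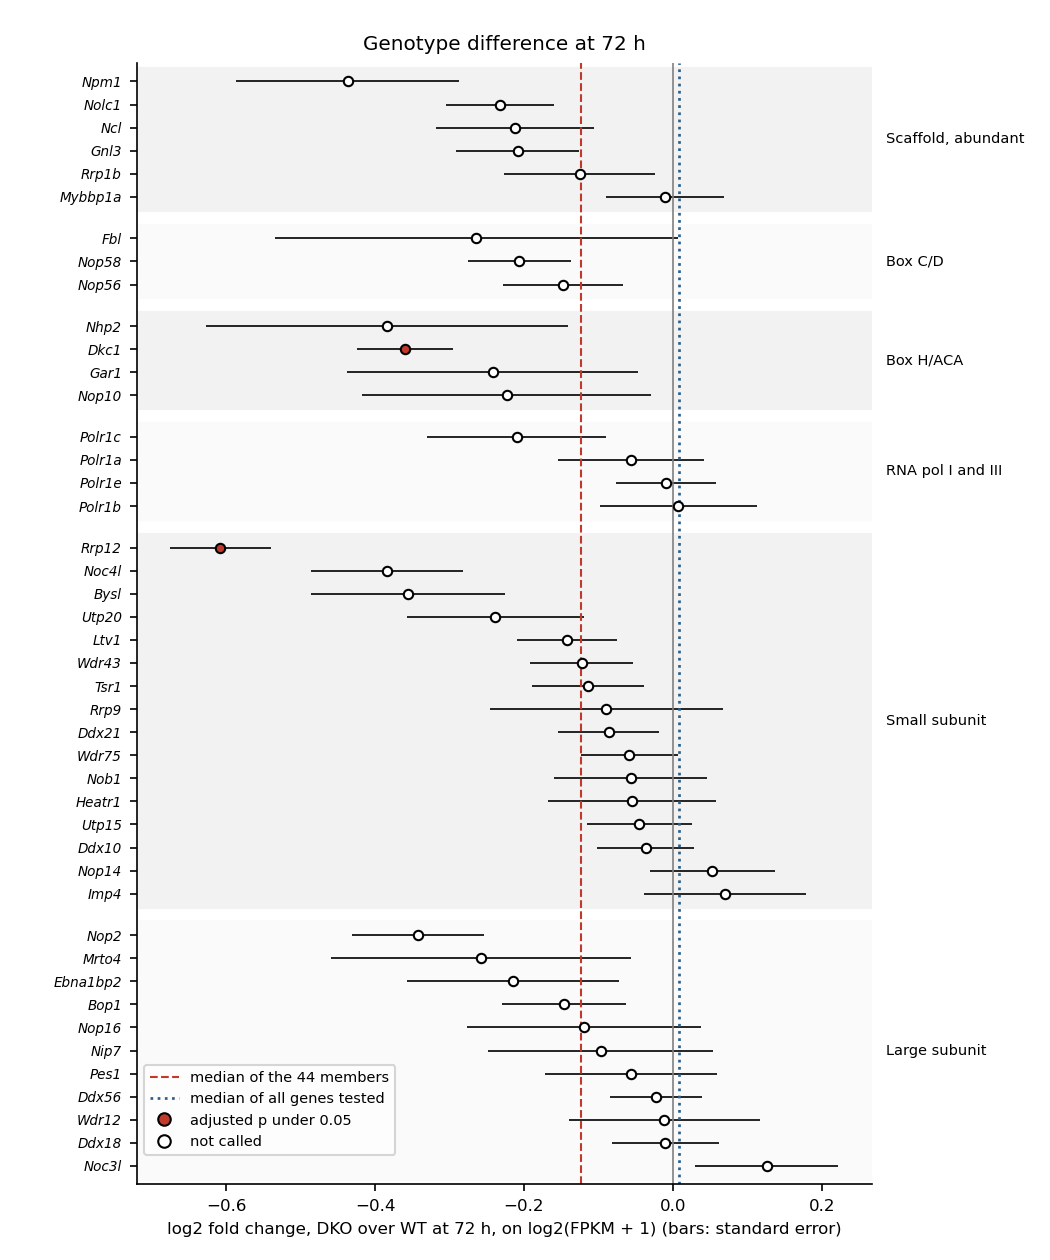
Fitted log2 fold change of DKO over WT at 72 h for each of 44 members, grouped by role, with bars for the standard error (3 libraries per group). Rrp12 and Dkc1, with filled symbols, passed an adjusted p of 0.05, the dashed line is the members' median of -0.12 and the dotted line that of all genes tested, 0.0082.

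Rrp12 (chromosome 19, 41862851 to 41896173, minus strand, GENCODE annotation of GRCm38) showed the largest difference of the members. It had 29.4, 27.6 and 26.4 FPKM in DKO libraries, against 42.9, 43.6 and 42.0 FPKM in WT libraries. The groups lay far apart for the spread within them, 27.8 ± 1.52 FPKM in DKO and 42.8 ± 0.79 FPKM in WT (SD, n = 3 each). On the log2 scale the difference was -0.61 with an SE of 0.068 (limma adjusted p = 0.0060). The call was kept when any 1 library was left out (limma adjusted p from 0.017 to 0.041) and was lost without both DKO library 2 and WT library 0 (log2 fold change -0.57, limma adjusted p = 0.10).

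Dkc1 (chromosome X, 75095854 to 75109777, plus strand) had 50.7, 50.4 and 47.95 FPKM in DKO libraries, against 63.9, 65.3 and 62.9 FPKM in WT libraries, with no overlap. The means were 49.7 ± 1.49 FPKM in DKO and 64.0 ± 1.25 FPKM in WT (SD, n = 3 each), and the log2 difference was -0.36 with an SE of 0.064 (limma adjusted p = 0.023). This call was weaker than that of Rrp12. It was lost without DKO library 0, 1 or 2 (limma adjusted p = 0.080, 0.095 and 0.065), without WT library 0 or 2 (0.061 and 0.066), and with the scaling that leaves out small RNA and ribosomal protein rows (log2 fold change -0.27, limma adjusted p = 0.12). Without both DKO library 2 and WT library 0 the limma adjusted p was also 0.12. A snoRNA gene lies inside Dkc1 on the same strand, and in all 7 members host such genes (Ncl, Nop56, Nop58, Dkc1, Wdr43, Gnl3 and Tsr1).

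Promoter windows were examined because some members lay lower together. RefSeq windows on GRCm38.p6, from 250 bases before to 50 bases after the start, were matched by symbol for 40 of the 44 members. Those of Rrp12, Bop1, Fbl and Npm1 were not used. Shown are Dkc1, the called member with a window, Nop2, which holds an E-box and an ETS motif, and Noc4l, which holds a TCF/LEF core. Nop2 (-0.34) and Noc4l (-0.38) had the lowest log2 fold changes among members with an E-box and with a TCF/LEF core. The other members ran from -0.24 (Utp20) to 0.070 (Imp4) for the E-box, and from -0.21 (Ncl) to 0.0073 (Polr1b) for the TCF/LEF core. Members with the ETS motif ran from -0.38 (Nhp2) to 0.13 (Noc3l). A link between motif and fold change was not tested. Capitals mark motif matches, and none of the searched motifs is in the window of Dkc1.
Dkc1 (chrX:75095604-75095903, plus strand): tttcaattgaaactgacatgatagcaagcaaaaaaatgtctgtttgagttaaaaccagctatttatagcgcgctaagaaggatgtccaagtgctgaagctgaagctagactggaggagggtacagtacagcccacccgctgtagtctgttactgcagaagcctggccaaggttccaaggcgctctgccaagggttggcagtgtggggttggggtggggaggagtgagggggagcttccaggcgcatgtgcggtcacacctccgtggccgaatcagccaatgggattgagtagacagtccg
Nop2 (chr6:125131633-125131932, plus strand): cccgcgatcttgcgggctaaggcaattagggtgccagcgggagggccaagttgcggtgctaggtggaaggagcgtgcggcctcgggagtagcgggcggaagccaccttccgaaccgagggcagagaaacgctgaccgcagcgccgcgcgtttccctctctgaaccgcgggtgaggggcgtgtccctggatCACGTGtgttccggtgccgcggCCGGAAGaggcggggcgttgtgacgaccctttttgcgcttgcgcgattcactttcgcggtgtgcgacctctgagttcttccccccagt
Noc4l (chr5:110653333-110653632, minus strand): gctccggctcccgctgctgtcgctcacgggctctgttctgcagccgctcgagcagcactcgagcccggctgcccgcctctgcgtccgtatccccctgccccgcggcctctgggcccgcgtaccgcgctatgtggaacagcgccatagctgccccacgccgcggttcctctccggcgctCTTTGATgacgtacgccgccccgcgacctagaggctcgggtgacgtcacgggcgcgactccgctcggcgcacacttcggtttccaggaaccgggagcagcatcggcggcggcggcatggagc

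The E-box CACGTG, the sequence bound by Myc with its partner Max, was in 8 of 40 member windows (20%), against 12.4% of the 7912 tested genes with a window. The TCF/LEF core, searched on both strands as CTTTGNN with A or T in place of each N, was in 6 of 40 (15%), against 13.6%. The ETS motif CCGGAAG, searched on both strands, was in 13 of 40 (32.5%), against 22.9%. The median GC content was 58.2% in member windows and 61% over all genes tested. No motif overlaps another in the windows shown, and a match is a description of letters, not of binding.

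The nucleolar scaffold and abundant proteins were all fitted below 0 and 0 of 6 passed the test, with a median of -0.21. Npm1, the chaperone nucleophosmin, was the most abundant member, ranked 140 among all genes tested by mean FPKM. It had 706, 749 and 625 FPKM in DKO libraries, against 826, 1066 and 931 FPKM in WT libraries (log2 fold change -0.44, SE 0.15, limma adjusted p = 0.13). The groups did not overlap, and the SD was 63.3 FPKM in DKO and 120 FPKM in WT. Ncl, the RNA-binding protein nucleolin, had 108, 112 and 103 FPKM in DKO, against 115, 142 and 119 FPKM in WT (log2 fold change -0.21, SE 0.11, limma adjusted p = 0.27). Nolc1, a chaperone of snoRNPs, had 42.7, 43.2 and 43.7 FPKM in DKO, against 49.4, 54.7 and 48.7 FPKM in WT (limma adjusted p = 0.11). Gnl3, the GTP-binding protein nucleostemin, had 52.6, 55.5 and 50.1 FPKM in DKO, against 61.4, 65.1 and 56.9 FPKM in WT (limma adjusted p = 0.18). For these 4 genes each DKO library lay below each WT library. Mybbp1a, a Myb-binding nucleolar protein, averaged 96.3 ± 1.01 FPKM in DKO and 97.2 ± 6.52 FPKM in WT (SD, n = 3 each), and Rrp1b, the lowest of the group, 19.0 ± 1.59 FPKM in DKO and 20.9 ± 2.18 FPKM in WT.

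Of the 3 box C/D proteins, which form the particle that methylates ribose, 0 passed the test and the median was -0.21. Fbl, the methyltransferase fibrillarin, had the widest spread of the 44 members among WT libraries (SD 0.46 on the log2 scale), but not among DKO libraries. It had 295, 295 and 207 FPKM in DKO libraries, against 224, 421 and 331 FPKM in WT libraries, so the groups overlapped (log2 fold change -0.26, SE 0.27, limma adjusted p = 0.57). The low values within each group were those of DKO library 2 and WT library 0. Nop58, a core protein that holds the guide RNA with Nop56, had 71.2, 70.0 and 65.6 FPKM in DKO, against 80.0, 78.3 and 80.6 FPKM in WT (log2 fold change -0.21, SE 0.069, limma adjusted p = 0.13). Nop56 had 137, 145 and 138 FPKM in DKO, against 149, 164 and 152 FPKM in WT (log2 fold change -0.15, limma adjusted p = 0.31). In both, each DKO library lay below each WT library.

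In the box H/ACA particle, which pseudouridylates RNA and is also part of telomerase, Dkc1 was the 1 of 4 members called lower. All 4 were fitted below 0, and the median was -0.30. Its partners Nhp2, Nop10 and Gar1 have short transcripts and overlapped between groups. Nhp2 had 129, 128 and 88.7 FPKM in DKO, against 113, 195 and 148 FPKM in WT (log2 fold change -0.38, SE 0.24, limma adjusted p = 0.37). Nop10, the most abundant of the particle, averaged 193 ± 39.2 FPKM in DKO and 223 ± 31.8 FPKM in WT (SD, n = 3 each; log2 fold change -0.22, limma adjusted p = 0.50). Gar1 averaged 43.0 ± 7.45 FPKM in DKO and 51.3 ± 10.4 FPKM in WT (log2 fold change -0.24, limma adjusted p = 0.48).

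The RNA polymerase subunits lay nearest to no difference, with 0 of 4 called and a median of -0.033. Polr1a, the largest subunit of RNA polymerase I, averaged 20.02 ± 0.83 FPKM in DKO and 20.9 ± 2.50 FPKM in WT (SD, n = 3 each). Polr1b, the other large subunit, averaged 19.4 ± 0.99 FPKM in DKO and 19.4 ± 2.55 FPKM in WT. Polr1c, which is shared with RNA polymerase III, averaged 54.9 ± 5.84 FPKM in DKO and 63.7 ± 7.32 FPKM in WT (log2 fold change -0.21, limma adjusted p = 0.33). Polr1e, the member with the lowest level, averaged 9.04 ± 0.27 FPKM in DKO and 9.11 ± 0.45 FPKM in WT. The sign of Polr1a and of Polr1e changed under the scaling without small RNA and ribosomal protein rows (0.030 and 0.073).

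Among the 16 factors of the small subunit processome and pre-40S particle, Rrp12 was the only one called, 14 were fitted below 0 and the median was -0.088. Noc4l, whose yeast counterpart binds Nop14 in this particle, had 22.5, 25.01 and 25.4 FPKM in DKO libraries, against 31.6, 35.9 and 28.7 FPKM in WT libraries. The groups did not overlap, and the difference missed the threshold (log2 fold change -0.38, SE 0.10, limma adjusted p = 0.070), while the authors' deposited table calls it (log2 fold change -0.40, q = 0.046). Bysl, the pre-40S factor bystin, had 22.4, 24.7 and 20.4 FPKM in DKO, against 24.4, 32.4 and 30.7 FPKM in WT (log2 fold change -0.36, SE 0.13, limma adjusted p = 0.16). Its groups overlapped through WT library 0. Ddx21, an RNA helicase and the most abundant of these factors, averaged 83.7 ± 2.87 FPKM in DKO and 88.9 ± 1.39 FPKM in WT (SD, n = 3 each), without overlap and with a limma adjusted p of 0.47. Its fold change of -0.09 (log2) was 0.0033 under the scaling without small RNA and ribosomal protein rows. Utp20, the lowest of the group and a scaffold of the processome, averaged 11.3 ± 1.44 FPKM in DKO and 13.5 ± 1.54 FPKM in WT. Ltv1, a factor of late pre-40S particles, and Wdr43, a subunit of the processome, also had each DKO library below each WT library, with log2 fold changes of -0.14 for Ltv1 and -0.12 for Wdr43. The 2 factors above 0 were Nop14, at 0.053, and Imp4, a partner of the U3 small nucleolar RNA, at 0.070.

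Of the 11 measured factors of the large subunit, 0 passed the test, 10 were fitted below 0 and the median was -0.097. Nop2, a methyltransferase that marks cytosine in ribosomal RNA, had 36.3, 38.9 and 35.0 FPKM in DKO libraries, against 43.0, 51.0 and 46.8 FPKM in WT libraries. All DKO libraries lay below all WT libraries (log2 fold change -0.34, SE 0.088, limma adjusted p = 0.066). Bop1, Pes1 and Wdr12 form the PeBoW complex, which acts in the processing of pre-60S RNA. Bop1 averaged 46.2 ± 1.55 FPKM in DKO and 51.4 ± 4.11 FPKM in WT (SD, n = 3 each). Pes1 averaged 45.5 ± 4.11 FPKM in DKO and 47.4 ± 5.40 FPKM in WT. Wdr12 averaged 20.1 ± 1.11 FPKM in DKO and 20.5 ± 3.59 FPKM in WT, and 0 of the 3 proteins of the complex passed the test (limma adjusted p = 0.32 for Bop1, 0.78 for Pes1 and 0.96 for Wdr12). Ddx18, a helicase with the highest level of the group, averaged 54.6 ± 2.59 FPKM in DKO and 55.03 ± 2.11 FPKM in WT. Noc3l, the lowest, had the highest fold change of all members, 10.2 ± 0.79 FPKM in DKO and 9.26 ± 0.93 FPKM in WT (log2 fold change 0.13, SE 0.096, limma adjusted p = 0.45).

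**Figure D3:**
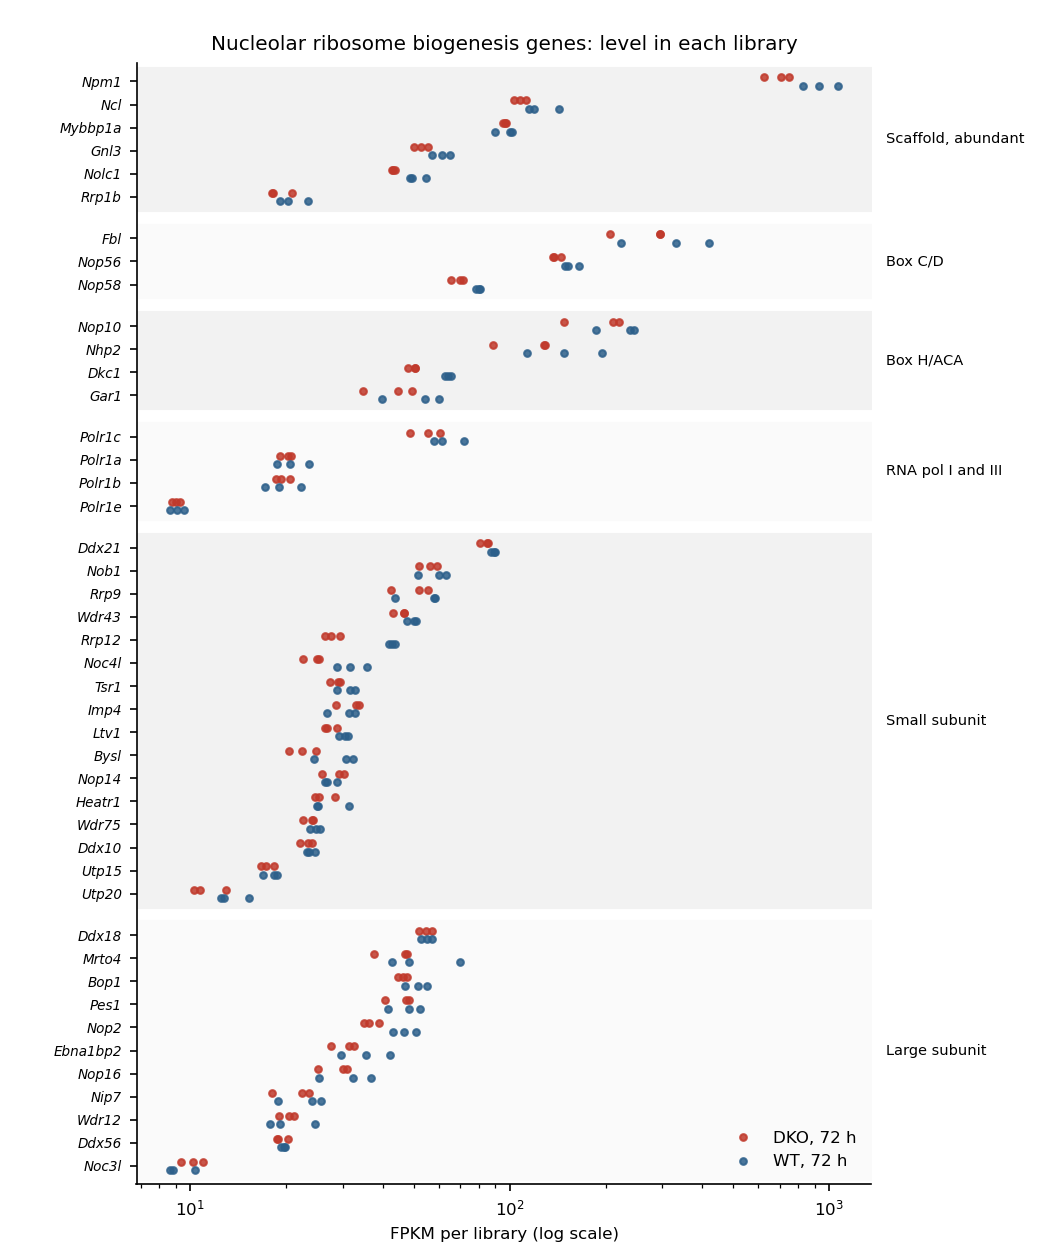
FPKM (log scale) of the 44 members in each of the 6 libraries at 72 h, grouped by role and ordered by WT mean, with DKO points above WT points in each row. Npm1 is highest, Polr1e and Noc3l lowest, and Rrp12 and Dkc1 show DKO points apart from WT points.

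Libraries differed in the level of the members as a whole. The median deviation of the 44 members from their own means, on the log2 scale, was -0.061, -0.018 and -0.12 in DKO libraries 0, 1 and 2, and 0.016, 0.17 and 0.056 in WT libraries 0, 1 and 2. The groups did not overlap, and WT library 1 was the highest library for 32 members and DKO library 2 the lowest for 25. Members took 0.390%, 0.396% and 0.388% of all FPKM in DKO libraries, against 0.434%, 0.424% and 0.412% in WT libraries. Each DKO share lay below each WT share. Npm1, which was not called, carried much of the gap, and without it the shares were 0.297%, 0.299% and 0.295% in DKO libraries, against 0.317%, 0.306% and 0.29999% in WT libraries.

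Genes of cell division differed by more. All 16 listed were called lower in DKO cells, each DKO library below each WT library, with a median log2 fold change of -1.94. Their summed level was 568 to 646 FPKM in DKO, against 1158 to 1622 FPKM in WT. The fit without both DKO library 2 and WT library 0 called 10 of all genes tested. Some of these 16 calls were thus lost in it. Mki67, a marker of cycling cells, averaged 8.56 ± 1.77 FPKM in DKO and 43.9 ± 9.95 FPKM in WT (SD, n = 3 each; limma adjusted p = 0.0041). The median deviation of these genes was -1.01, -0.86 and -0.81 in DKO libraries 0, 1 and 2, and 0.83, 1.27 and 0.72 in WT libraries 0, 1 and 2. WT library 1 was thus highest for both lists, but the lowest libraries differed. Among DKO libraries, library 2 was lowest for the members and library 0 for the division genes. Among WT libraries, library 0 was lowest for the members and library 2 for the division genes. The part of division in the members' difference was not tested.

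Few of the other genes of ribosome assembly were called. Of 131 tested genes on this list, 3 were called lower and 0 higher in DKO cells, where 6.36% of all genes tested were called lower and 4.31% higher. On this list 87 were fitted below 0, where 48.7% of all genes tested were, and the median was -0.080. Heatr3, whose yeast counterpart carries ribosomal proteins to the nucleus, had 15.05, 15.8 and 16.4 FPKM in DKO, against 19.5, 20.1 and 19.3 FPKM in WT (log2 fold change -0.30, limma adjusted p = 0.035). Naf1, an assembly factor of box H/ACA particles, had 7.34, 6.95 and 7.77 FPKM in DKO, against 10.4, 9.14 and 9.70 FPKM in WT (log2 fold change -0.36, limma adjusted p = 0.039). Pinx1, a nucleolar protein that binds telomerase, had 13.9, 13.7 and 13.2 FPKM in DKO, against 15.8, 18.3 and 18.3 FPKM in WT (log2 fold change -0.34, limma adjusted p = 0.048). In all 3 genes each DKO library lay below each WT library. The calls of Heatr3 and Naf1 were lost when any 1 library was left out (limma adjusted p of 0.074 to 0.14 for Heatr3 and 0.053 to 0.16 for Naf1). That of Pinx1 was kept without WT library 0 (limma adjusted p = 0.046) and lost when any other library was left out (0.11 to 0.17).

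Within the Myc network, 3 antagonists of Myc that share its partner Max passed the test, and Myc did not. Mxd3 fell, at 9.74 ± 1.41 FPKM in DKO and 32.6 ± 6.17 FPKM in WT (SD, n = 3 each; log2 fold change -1.64, limma adjusted p = 0.0042). Mxi1 rose, at 10.7 ± 1.20 FPKM in DKO and 4.64 ± 0.73 FPKM in WT (log2 fold change 1.05, limma adjusted p = 0.0072). Mxd4 rose, at 63.2 ± 8.23 FPKM in DKO and 28.7 ± 7.02 FPKM in WT (log2 fold change 1.13, limma adjusted p = 0.022), a call lost without DKO library 0, 1 or 2 (limma adjusted p = 0.087, 0.093 and 0.065) or WT library 0 (0.064). Myc itself had 162, 152 and 150 FPKM in DKO, against 135, 129 and 146 FPKM in WT, without overlap and short of the threshold (log2 fold change 0.18, limma adjusted p = 0.26). Max, the shared partner, lay the other way, at 60.3 ± 5.06 FPKM in DKO and 80.8 ± 8.84 FPKM in WT, without overlap and short of the threshold (log2 fold change -0.41, limma adjusted p = 0.073). The authors' deposited table calls Max lower at 72 h (-0.42, q = 0.023) and at 0 h (-0.37, q = 0.00087). Of 9 tested genes of nucleolar stress and the p53 response, 0 were called by limma, 0 had an unadjusted p under 0.05, and the authors' deposited table calls 1 higher.

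The authors' deposited table also compares the genotypes at 0 h, before culture, a comparison for which only fold changes and q-values are used here, with no error of their own. Most of the nucleolar genes were lower in the 0 h group labelled DKO. The authors' deposited table calls 28 of 44 members lower and 0 higher at q under 0.05 (63.6% lower, where 16.9% of all tested genes were called lower and 14.7% higher), with a median log2 fold change of -0.31, against -0.0075 over all genes. In the authors' deposited table Npm1 had the lowest value (-0.71), followed by Nop2 (-0.59) and Dkc1 (-0.58), each with q = 0.000315, the smallest the comparison holds. Rrp12 stood at -0.57 and Fbl at -0.55, with the same q in the authors' deposited table. Wdr12 (0.083), Bysl (0.044) and Imp4 (-0.077) were highest there and were not called. No member reached a 2-fold difference. By role, the authors' deposited table calls lower 4 of 6 scaffold proteins, 2 of 3 box C/D proteins, 3 of 4 box H/ACA proteins, 4 of 4 polymerase subunits, 9 of 16 small subunit factors and 6 of 11 large subunit factors. Of the other ribosome assembly genes, 36 of 131 were called lower (27.5%, against 16.9% of all tested genes) and 1 higher, with a median of -0.14.

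Marker lists also differed in the 0 h comparison. Of 10 T cell markers the authors' deposited table calls 4 higher and 3 lower, among them Cd247 (1.47), Cd5 (-0.90) and Cd3d (-0.59). In the authors' deposited table Lef1 was lower in the group labelled DKO (-1.51, q = 0.000315), but Tcf7 was not called (-0.10, q = 0.53), so Tcf7 does not check that label. All 5 tested B cell markers were called higher in the authors' deposited table at 0 h, with a median log2 fold change of 1.39, as were 2 of 5 myeloid markers, 1 of 3 erythroid and platelet markers, 2 of 5 NK markers (1 lower) and 3 of 3 CD4 T cell markers. Of 13 tested genes of cell division, 5 were called lower and 2 higher, and Myc was lower in the authors' deposited table (-0.33, q = 0.000315). Of the p53 list 2 were called higher and 2 lower. The part of these in the members' difference was not tested.

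At 72 h the authors' deposited table calls 2 of 44 members lower and 0 higher (9.87% of all tested genes lower and 6.46% higher), Rrp12 (-0.62, q = 0.000643) and Noc4l (-0.40, q = 0.046), with a median of -0.13. The 0 h and 72 h genotype comparisons share no group. By the authors' deposited table, 38 of 44 members had a smaller difference at 72 h than at 0 h in size, and 38 were below 0 at both times (86.4% for each count). Of 10931 genes tested at both times, 49.3% had a smaller difference at 72 h and 33.9% were below 0 at both times. Of the 28 called lower at 0 h in the authors' deposited table, 26 were below 0 at 72 h (92.9%, against 82.7% of all genes called lower at 0 h) and 1, Rrp12, was called. Across the 44 members the values at 0 h and 72 h had a Pearson correlation of 0.46 and a Spearman correlation of 0.41, a description over genes that share annotation and libraries, and over all 10931 genes the values were 0.57 (Pearson) and 0.51 (Spearman). Rrp12 stood at -0.57 at 0 h and -0.62 at 72 h, while Polr1b stood at -0.42 at 0 h and 0.0011 at 72 h. Noc3l stood at -0.39 at 0 h and 0.14 at 72 h. Whether the genotype difference changed between the times was not tested.

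**Figure D4:**
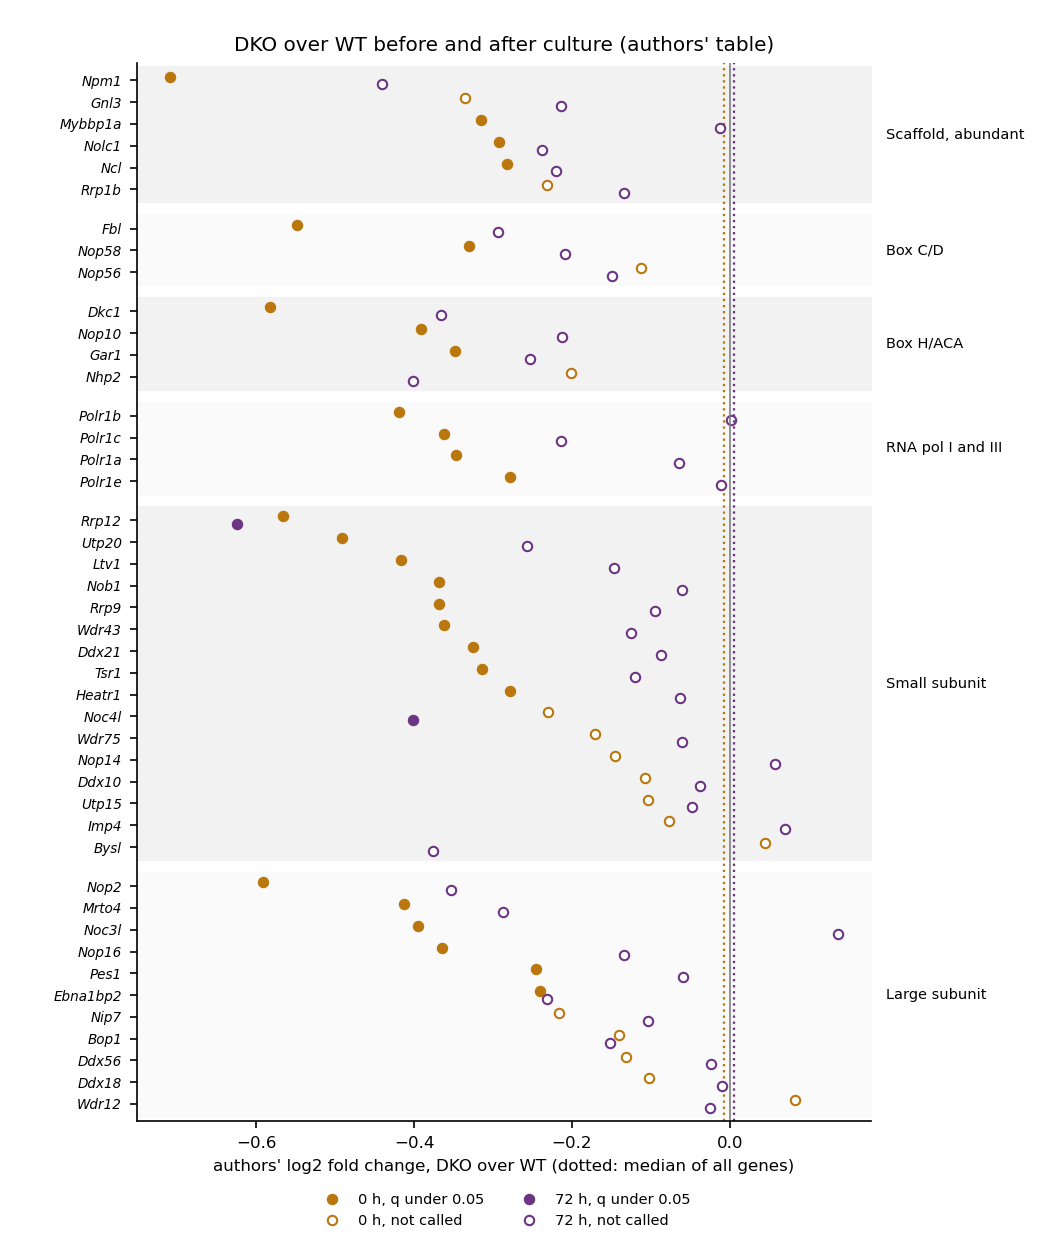
Log2 fold change of DKO over WT in the authors' deposited table at 0 h and at 72 h for the 44 members, with filled symbols for q under 0.05 and dotted lines at the medians of all genes (-0.0075 and 0.0061). Most 0 h points lie left of the 72 h points of the same gene, and Rrp12 and Noc4l are filled at 72 h.

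Many nucleolar genes rose over the culture in IL-7 plus IL-15, in DKO and in WT cells. In DKO cells the authors' deposited table calls 28 of 44 members higher and 0 lower at 72 h than at 0 h (63.6% higher, where 24.8% of all tested genes were higher and 20.4% lower), with a median log2 fold change of 0.41. In WT cells the authors' deposited table calls 19 higher and 1 lower, Noc3l (43.2% higher, where 25.8% of all tested genes were higher and 22.1% lower), with a median of 0.29. The medians over all genes were 0.018 in DKO and 0.016 in WT. Each of these comparisons shares a group with each genotype comparison. A total of 18 members were called higher in both genotypes, 10 in DKO only and 1, Bysl, in WT only, and the difference between genotypes was not tested.

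In the authors' deposited table Rrp12 had the largest culture values, 1.16 in DKO and 1.24 in WT. Nhp2 followed with 0.99 in DKO and 1.20 in WT. Fbl stood at 0.95 in DKO and 0.71 in WT, and Wdr12 at 0.87 in DKO and 0.99 in WT. All 4 were called in both genotypes. Rrp12 was thus the member with the largest rise in culture and also lower in DKO than in WT at both times. The lowest values in the authors' deposited table were those of Ddx10 (-0.22), Noc3l (-0.022) and Wdr75 (0.0070) in DKO, none called. In WT they were Noc3l (-0.54, q = 0.00039), Ddx10 (-0.28) and Ltv1 (-0.24), of which Noc3l was called.

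By role, in the authors' deposited table, all 4 box H/ACA proteins were called higher in DKO and in WT, with medians of 0.82 in DKO and 0.64 in WT. Of these, Nhp2, Nop10 and Gar1 have short transcripts, and the part of transcript length in these values was not tested. The box C/D proteins were called 3 of 3 in DKO and 2 of 3 in WT, the scaffold proteins 6 of 6 in DKO and 3 of 6 in WT, and the polymerase subunits 3 of 4 in DKO and 1 of 4 in WT, the last a share of 25%. Small subunit factors were called 4 of 16 in DKO and 3 of 16 in WT, with medians of 0.18 in DKO and 0.0065 in WT. These shares, 25% in DKO and 18.75% in WT, were near or below those of all tested genes called higher (24.8% in DKO and 25.8% in WT), so the small subunit factors did not stand out by their count. Large subunit factors were called 8 of 11 in DKO and 6 of 11 in WT. Npm1 was called in DKO (0.57) and not in WT (0.32, q = 0.082) in the authors' deposited table, and Mybbp1a likewise (0.47 in DKO, 0.19 in WT).

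Among the other lists in the authors' deposited table, all 16 genes of cell division were called higher in both genotypes, with medians of 2.78 in DKO and 4.36 in WT. Beside these, the medians of the nucleolar genes were 0.41 in DKO and 0.29 in WT, and the differences between genotypes were not tested. Myc was called higher in DKO (0.72, q = 0.000232) and not in WT (0.23, q = 0.14). The other ribosome assembly genes were called 40 higher and 9 lower of 131 in DKO, and 33 higher and 14 lower in WT. The shares called higher were 30.5% in DKO and 25.2% in WT, where 24.8% and 25.8% of all tested genes were. The WT share was thus no larger than that of all genes. Of 5 tested B cell markers 4 were called lower in DKO, and of 2 tested in WT 1 was. Myeloid markers were called 2 higher and 2 lower of 8 in DKO and 4 higher of 5 in WT, and the part of these in the members' rise was not tested.

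**Figure D5:**
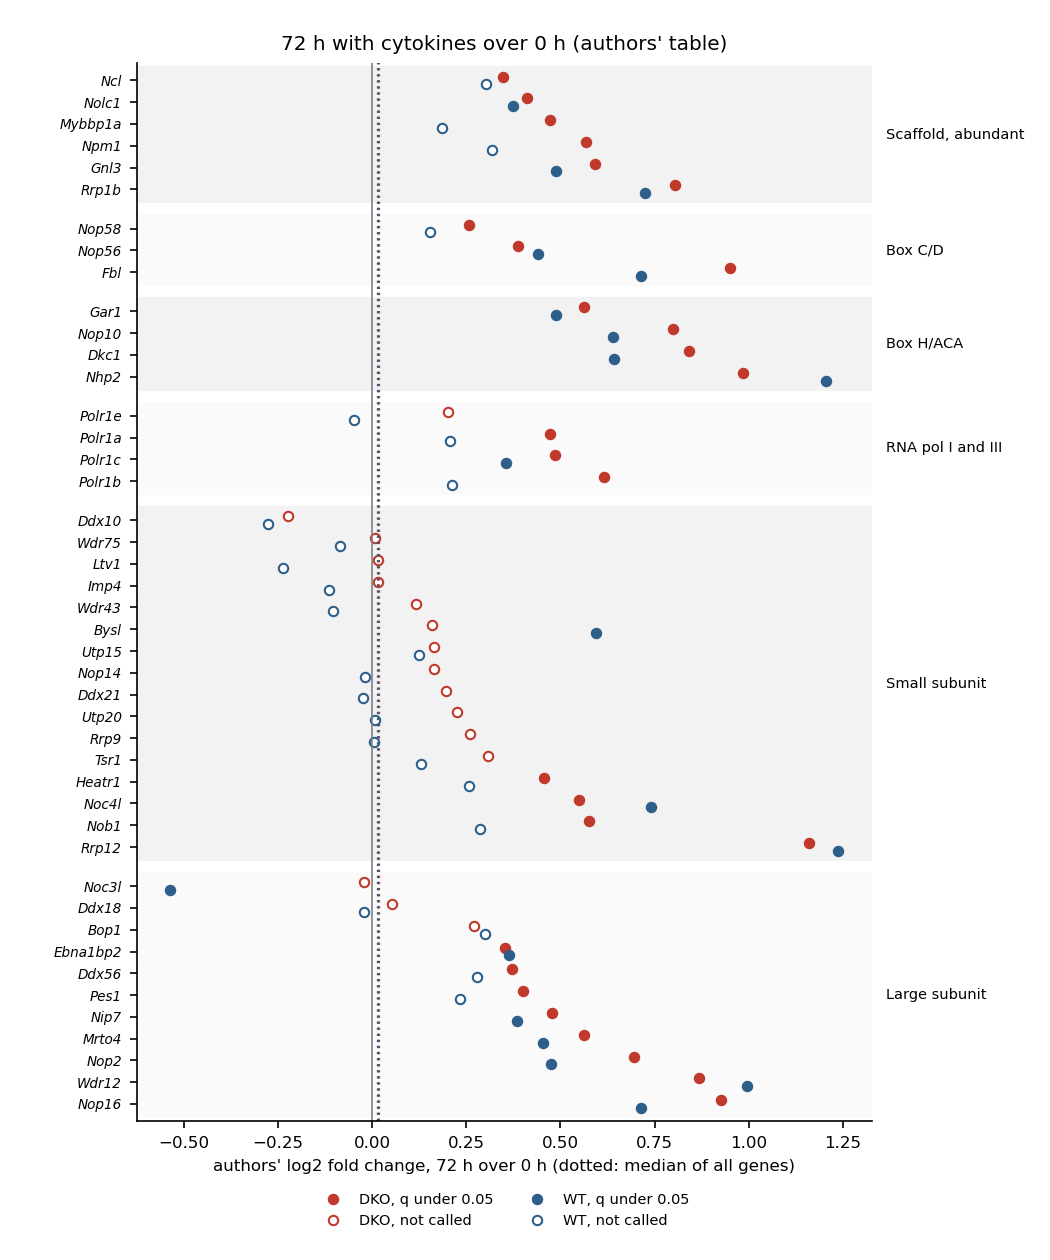
Log2 fold change of 72 h over 0 h in the authors' deposited table for the 44 members, DKO above WT in each row, with filled symbols for q under 0.05 and dotted lines at the medians of all genes (0.018 and 0.016). Rrp12 lies farthest right in both genotypes, with 1.16 in DKO and 1.24 in WT, and Noc3l in WT farthest left.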

How the data were processed

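The labels' protocols give total RNA of 3 DKO and 3 WT libraries sequenced on a HiSeq-2000. Tools in the submitters' processing notes are Cuffdiff 2.2.1, TopHat2 2.1.0 and FastQC, and the builds listed there, mm9 and mm10, carry no role. The sources used here name no annotation. As deposited by the authors, the table holds FPKM values per library from a pairwise Cuffdiff run of both groups at 72 h. The authors' deposited p-values, q-values and log2 fold changes were used for 4 comparisons, DKO over WT at 0 h and at 72 h, and 72 h over 0 h in each genotype. The 6 per-library columns at 0 h match no sample here and stayed out. Because columns count from 0 to 2 and titles from 1 to 3, a column is tied to its group and not to a title. Same-numbered libraries were checked and did not deviate together.

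Tests used log2(FPKM + 1), a scale on which differences of low genes look smaller than they are. Genes averaging at least 1 FPKM entered limma 3.58.1 (R 4.3.3) with genotype alone in the model, a trended prior variance, two-sided tests and Benjamini-Hochberg adjustment at 0.05 over all 10723 genes. The fit was also run on simulated data, with noise drawn for each gene alone and no shift shared by the genes of a library. On the log2 scale it recovered 32% of 50 changes of -0.5, 72% of 50 of -1 and 92% of 50 of -2. Of 142 calls, 8 were false. Most changes of -0.5 were thus missed even there, and shared shifts such as those with transcript length were not simulated. For the authors' comparisons, rows that the table marks with p = 1 were counted as not tested. Members, role groups and the other lists (16 lists) were chosen with earlier results of these data known, so counts are set beside all genes and no set test was run. Named are Tcf7 and Lef1, the called members, Npm1, Ncl and Fbl, in each role group the 3 members with the smallest p and those with the highest and lowest level, members whose groups do not overlap, called genes of the other lists with Myc and Mki67, and the 3 highest and lowest members of each authors' comparison. Some further members were chosen after their values were seen, to complete the PeBoW and H/ACA complexes or to show a contrast. Max and the named T cell, B cell, NK, CD4 T cell, myeloid and erythroid markers were also chosen after their values were seen. Gene positions and transcript lengths came from GENCODE M21 on GRCm38 and promoter windows from RefSeq (GRCm38.p6). Python 3.11.15 with pandas 2.3.3, scipy 1.17.1 and matplotlib 3.10.9 was used. The results were recomputed with changed pseudocounts, filters, scalings and priors, with the column number as a replicate block, with libraries left out, and from the authors' q-values. Protein sequences were not used here.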

Additional observations from a re-analysis of the deposited data

How the results depend on the processing

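The number of members called at 72 h was 2, and 1 or 2 when each library was left out in turn. It was 4 with quantile normalization (Npm1 and Nop2 added), 1 with scaling to the total without small RNA and ribosomal protein rows, 0 without both DKO library 2 and WT library 0, and 0 with the column number as a replicate block. Same-numbered libraries had correlations of -0.168, 0.0363 and -0.0143, so the column number showed no pairing. Between libraries of different number they ran from -0.122 to 0.133, the highest for WT library 0 with DKO library 2. A pairing across different numbers was not tested. Calls over all genes numbered 356 with the block and 1144 without it. Of the other ribosome assembly genes 3 were called, and 0 or 1 with each library left out, 1 with no filter, and 0 with the same scaling, without both libraries and with the block. The members' median of -0.12 was -0.037 with that scaling, and no alternative turned its sign. Over 39 named genes and 17 alternatives, 663 values in all, 590 kept direction and side of the threshold, 60 lost a call, 2 gained one and 11 turned sign. These 11 were Ddx18 (0.043 with quantile normalization, 0.079 with the scaling, 0.016 without WT library 2, 0.025 without DKO library 2), Ddx21 (0.0033 with the scaling), Polr1a (0.030 with the scaling, 0.030 without WT library 0, 0.0059 without both libraries) and Polr1e (0.073 with the scaling, 0.023 without WT library 1, 0.011 without DKO library 2). With each library left out in turn, the lowest values of Ddx18, Polr1a and Polr1e were -0.042, -0.13 and -0.041. The cause was not tested. Absolute depth is unknown, so no counting error could be set beside FPKM.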
